A study of Mus musculus with 16 samples.

Results

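Myotubes grown with serum of mice that lack Bmal1 in the liver were compared between night serum and day serum. The members are 8 of the 16 libraries of the study, 4 under serum taken at ZT16 and 4 under serum taken at ZT4, and every expressed gene was described across them. ZT is the time in hours after lights on, so that ZT4 lies in the day, when mice rest, and ZT16 in the night, when they feed. The donors were Bmal1hep-/- mice, in which the deletion is specific to the liver, and the groups are called LKO ZT4 and LKO ZT16 here. The cells were C2C12, a mouse myoblast line differentiated into myotubes, exposed to serum for 24 hr. The other 8 libraries came from myotubes under serum of wild-type (WT) mice at the same times and enter here as the set against which the LKO difference was tested. The labels give no strain, age, sex or feeding of the donors, nor whether serum was pooled, and call the 4 libraries of a group biological replicates. Should they not come from separate donors or cultures, the p-values would reflect this spread alone, which could be technical.

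BMAL1 pairs with CLOCK to switch on the genes of the circadian clock, among them its own repressors of the PER, CRY and REV-ERB families, which closes a feedback loop. The liver clock times the release of glucose, lipids and secreted proteins into blood, and feeding times it in turn. Serum also resets clocks of cultured cells and carries insulin, growth factors, lipids and glucocorticoids that act on muscle cells within hours.

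The libraries held poly-A RNA, and the authors' deposited values were FPKM, fragments scaled by transcript length and library total. All levels below are FPKM, and all differences are of log2(FPKM+1), LKO ZT16 minus LKO ZT4, which damps the changes of weakly expressed genes. No read counts were used, so depth is given relative to the deepest library, as read from the steps between low values. This share was 68.7 ± 4.11% (mean ± SD, n = 4) in LKO ZT4 against 84.8 ± 11.8% in LKO ZT16. Between 14234 and 14877 genes had a value above 0 in the 8 libraries. All 12 myotube markers were expressed in every one, with medians of 2390 for Mylpf, 2140 for Acta1 and 338 for Myog. Markers of undifferentiated or cycling myoblasts were present too (6 of 6), with a summed level of 280.9 to 323.8 in LKO ZT4 against 313.2 to 338.3 in LKO ZT16. Of the markers of adipocytes 3 of 4 were at 0 in all 8 libraries, of hepatocytes 3 of 6, of blood cells 5 of 9, of macrophages 1 of 4 and of endothelium 0 of 3, though these 3 summed to at most 0.173 in any library. Blood cell markers summed to at most 2.925 and macrophage markers to at most 1.59. Ppbp (up to 1.66), S100a8 (up to 1.41) and Cd68 (up to 1.42) were high enough to be tested.

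LKO ZT4 was the less even group. On the leading principal component of the 8 libraries, which held 26.5% of the variance, its replicate 1 lay at -21.8 and its replicate 4 at 16.6. Results that rest on single libraries are therefore given with and without them.

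Of 11783 genes tested, 2 passed (0.017%), and both were lower under night serum. The call rested on limma, fitted to all 16 libraries, at a Benjamini-Hochberg adjusted p under 0.05. At an unadjusted p under 0.05 there were 1400 genes (11.9%), 721 higher (6.12%) and 679 lower (5.76%). The groups did not overlap in 589 genes (5%), 292 higher (2.48%) and 297 lower (2.52%). The median difference of all genes tested was 0.01, with 51.7% above 0.

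Snhg6 is a noncoding gene whose introns carry small nucleolar RNAs (snoRNAs), the guides of ribosomal RNA modification. It lies on chromosome 1 from 9941959 to 9944118 in the GENCODE M21 annotation of GRCm38. By day, LKO replicates 1 to 4 had 70.9, 76.7, 94.2 and 88.1 FPKM, and by night 51.3, 44.6, 55.9 and 54.0. Every night library lay below every day library, and the gap between the groups was about as wide as the night group's own range. Snhg6 fell by 0.67 ± 0.10 (estimate ± SE, adjusted p = 0.0315).

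Tmem208, an ER membrane protein of a pathway that inserts membrane proteins, lies on chromosome 8 from 105326354 to 105335219. Its FPKM was 95.8, 93.1, 86.8 and 95.1 in LKO ZT4 against 67.5, 65.0, 71.7 and 67.7 in LKO ZT16. All 4 night values were lower than all 4 day values, and both groups were tight. The fall was 0.44 ± 0.07 (a log2 difference of -0.44, adjusted p = 0.0315). Both calls were lost when any 1 of the LKO ZT16 libraries, or replicate 2 or 4 of LKO ZT4, was left out (adjusted p 0.0631 to 0.165), and that of Snhg6 also without LKO ZT4 replicate 3 (-0.60, adjusted p = 0.0507), while the differences stayed between -0.71 and -0.60 for Snhg6 and between -0.47 and -0.42 for Tmem208 in the first 6 fits. In a fit of only the 8 LKO libraries the adjusted p was 0.260 and 0.219.

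**Figure D1:**
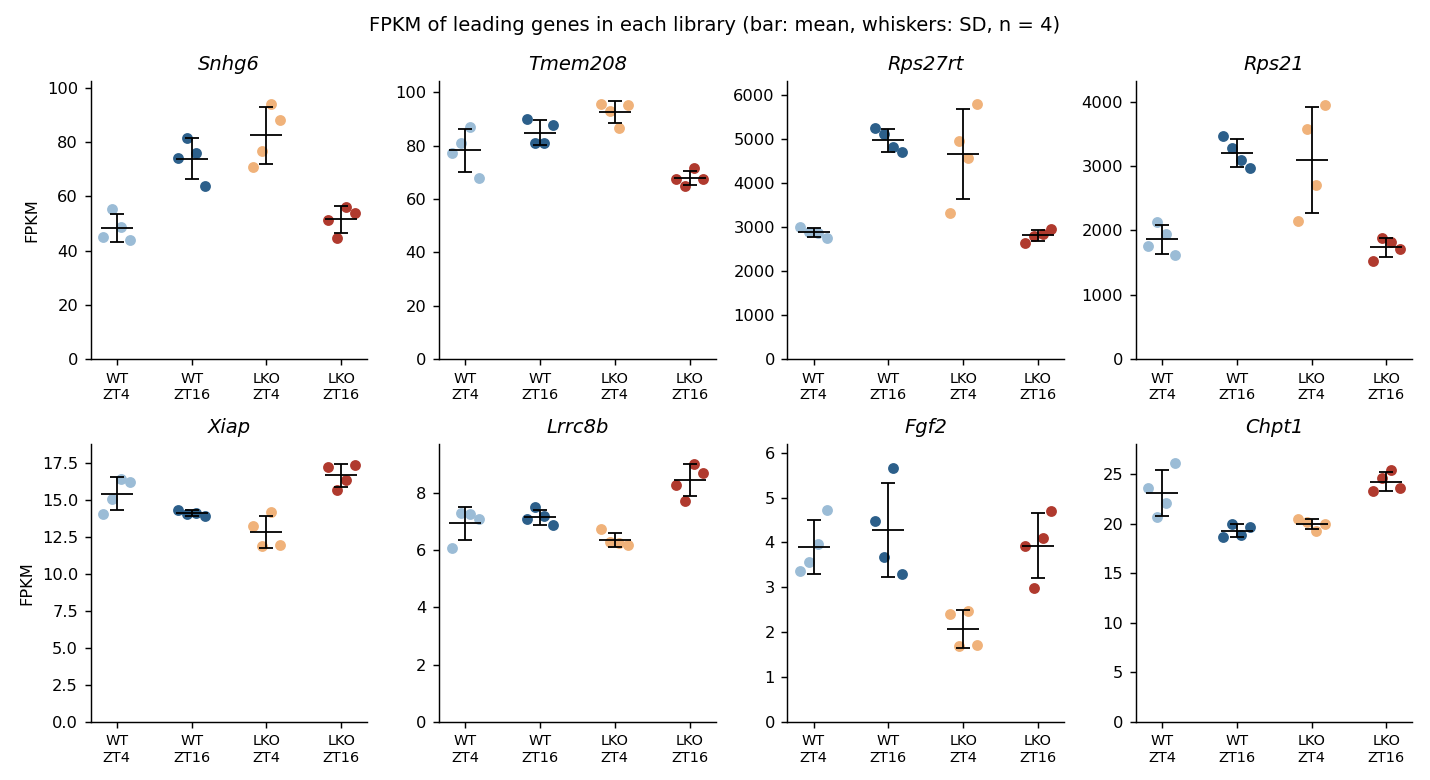
FPKM of 8 genes in each of the 16 libraries, by group, with points for libraries in the order of replicates 1 to 4, a bar for the mean and whiskers for the SD (n = 4). Snhg6 and Tmem208 in LKO ZT16 lie below LKO ZT4 without overlap, and Snhg6, Rps27rt and Rps21 are higher in WT ZT16 than in WT ZT4 but lower in LKO ZT16 than in LKO ZT4.

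Among the 12 annotated genes with the smallest p on the lower side, 10 did not pass, and in all 12 the groups did not overlap, which is in part how a small p arises. They were short transcripts, from 374 to 967 nt. Rps27rt, the retrogene of ribosomal protein Rps27, had 3322, 4952, 4562 and 5798 in LKO ZT4 against 2635, 2800, 2840 and 2951 in LKO ZT16. The night values lay within a narrow band and the day values spread widely above it (-0.70 ± 0.12, adjusted p = 0.0674). Rps21, of the small ribosomal subunit, had 2139, 3577, 2712 and 3956 by day and 1530, 1881, 1816 and 1712 by night (-0.80 ± 0.15, adjusted p = 0.0869). Rpl39, of the large subunit, had 1536, 2465, 1934 and 2323 by day and 1374, 1457, 1447 and 1368 by night (-0.52 ± 0.11, adjusted p = 0.159). In all 3 genes the day library nearest to the night group was replicate 1.

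Ssr4, a subunit of the complex that sits beside the ER translocon, had 219, 211, 180 and 187 in LKO ZT4 against 151, 172, 157 and 139 in LKO ZT16 (-0.36 ± 0.07, adjusted p = 0.0898). Tmem150a, a plasma membrane protein that helps to place the lipid kinase PI4KA, had 17.1, 15.1, 15.7 and 16.8 by day and 13.02, 12.4, 12.1 and 13.2 by night (-0.33 ± 0.06, adjusted p = 0.0674). For both, day and night libraries formed separate sets with no library far from its group. Slirp, which with LRPPRC stabilizes mitochondrial mRNAs, had 218, 327, 211 and 312 by day and 158, 203, 156 and 174 by night (-0.60 ± 0.13, adjusted p = 0.159). Here the day group split into a lower and a higher pair of libraries, and the lower pair lay close to the highest night library.

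Gadd45g, a stress and growth-arrest gene, had 86.8, 83.6, 82.1 and 94.2 by day and 48.5, 73.4, 66.4 and 56.3 by night (-0.51 ± 0.11, adjusted p = 0.159). Its night values were the more spread ones. Trappc2l, of the TRAPP complexes that tether transport vesicles, differed by -0.29 ± 0.06 (adjusted p = 0.180), with 48.6 to 54.1 by day and 39.8 to 45.8 by night. The remaining genes of the 12 had low levels. Fam229b lay between 3.63 and 4.97 by day and between 1.83 and 2.90 by night (-0.70 ± 0.15), and the homeobox gene Rhox10 between 1.52 and 2.75 by day and between 0.427 and 0.844 by night (-0.88 ± 0.18), both with an adjusted p of 0.159.

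The 12 genes with the smallest p on the higher side did not pass, and again the groups did not overlap in any of them. They were longer, with a median of 1632 nt against 570.5 nt for the 12 lower genes, and lower in level, with a median of 9.19 against 77.1 FPKM. Xiap, an inhibitor of caspases, had 13.2, 11.9, 14.2 and 11.97 in LKO ZT4 against 17.2, 15.7, 16.4 and 17.4 in LKO ZT16 (0.35 ± 0.07, adjusted p = 0.0869). Lrrc8b, a subunit of volume-regulated anion channels, had 6.74, 6.28, 6.26 and 6.18 by day and 8.29, 7.74, 9.03 and 8.72 by night (0.36 ± 0.07, adjusted p = 0.0869). In both genes the night libraries stood clear of the day libraries by about the spread of a group. Fgf2, a growth factor that keeps myoblasts dividing, had 2.39, 1.70, 2.46 and 1.71 by day and 3.93, 2.98, 4.11 and 4.71 by night (0.68 ± 0.14, adjusted p = 0.159). Its night level was close to that of both WT groups (WT ZT4 3.90 ± 0.607, WT ZT16 4.28 ± 1.04, n = 4 each), and its day level was the low one.

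The other 9 were of varied function. Rbl1, the p107 repressor of E2F genes, had 12.5, 15.8, 14.98 and 12.6 by day and 17.7, 16.7, 17.6 and 17.9 by night (0.31 ± 0.07, adjusted p = 0.197). Ccnt1, the cyclin of the elongation factor P-TEFb, lay between 6.91 and 8.61 by day and between 8.97 and 12.2 by night (0.38 ± 0.09), and Brca1, of DNA break repair, between 6.17 and 6.66 and between 7.58 and 8.35 (0.28 ± 0.06). The forkhead repressor Foxn3 differed by 0.49 ± 0.11, the microtubule end protein Mapre2 by 0.32 ± 0.08, the centriole protein Poc1b by 0.29 ± 0.07 and the lysosomal peptidase Prcp by 0.28 ± 0.07. These 6, from Ccnt1 on, each had an adjusted p of 0.197. Nucks1, a chromatin protein, had 60.5, 55.9, 55.3 and 53.5 by day and 64.8, 65.2, 64.0 and 65.2 by night (0.20 ± 0.05, adjusted p = 0.206). Its night values lay close together, just above the highest day value. The last of the 12, Chpt1, is described with the WT comparison.

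**Figure D2:**
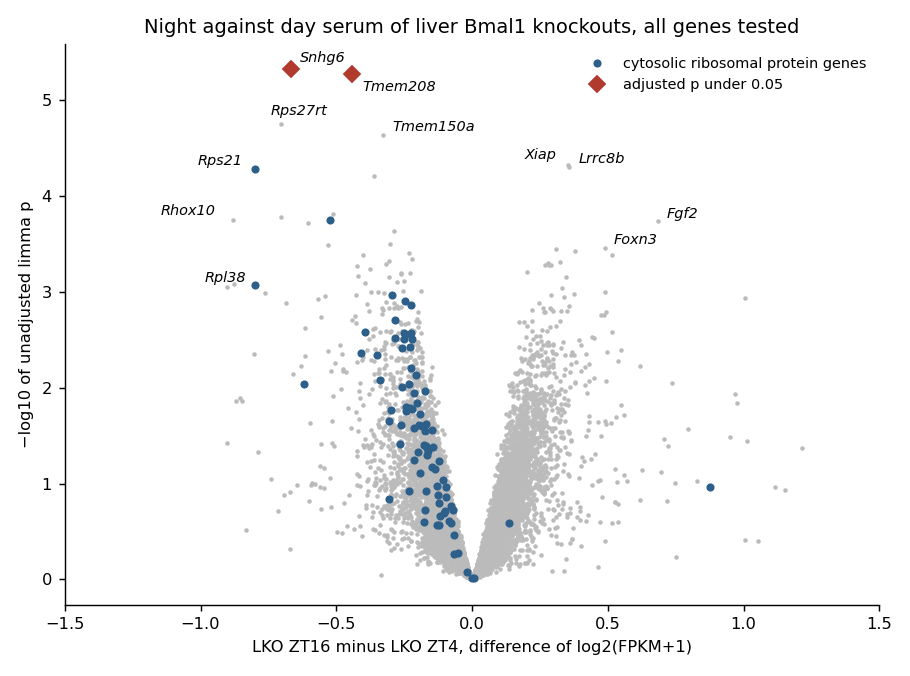
Difference of log2(FPKM+1) between LKO ZT16 and LKO ZT4 (x axis) against the -log10 of the unadjusted limma p (y axis) for the genes tested, with 5 genes beyond the axis limits of 1.5 not drawn. The 2 genes that passed are diamonds on the lower side, and of the 82 cytosolic ribosomal protein genes (blue) 79 lie below 0.

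Cytosolic ribosomal protein genes, which are expressed at a high and common level in growing cells, made up the group with the highest share of small p-values. Of 82 tested, 79 had a lower value under night serum, and their median was -0.19 against 0.01 for all genes. This median was -0.14 without LKO ZT4 replicate 4 and -0.16 without replicate 2, the day libraries in which these genes were highest. Without replicate 1 or 3 it was -0.22 or -0.23. None passed, 48 had an unadjusted p under 0.05 and a lower value (58.5% against 5.76% of all genes), and in 25 of the 82 every night library lay below every day library (2.52% over all genes). The genes with the smallest p were Rps21, Rpl39, Rpl38 and Fau. Rpl38 had 1462, 3146, 1704 and 3095 in LKO ZT4 against 1292, 1418, 1132 and 1279 in LKO ZT16 (-0.80 ± 0.20, adjusted p = 0.212). Fau, which encodes a ubiquitin-like protein fused to ribosomal protein S30, had 1459, 1606, 1679 and 1895 by day and 1326, 1329, 1387 and 1350 by night (-0.29 ± 0.07, adjusted p = 0.212). For Rpl38 day replicates 2 and 4 stood far above day replicates 1 and 3.

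The 3 ribosomal protein genes with higher values under night serum, named after their values were seen, were Rps27, Rpl26 and Rpl28, none with an unadjusted p under 0.05. Rps27 had 7.64, 7.14, 5.86 and 11.2 by day and 8.44, 11.1, 80.9 and 6.17 by night, so 1 library made its difference of 0.88 ± 0.52. Its retrogene Rps27rt is listed at a far higher level. Both have nearly the same sequence, as have Rpl34 and Rpl34-ps1 and many ribosomal protein genes and their processed copies. No source used here gives how reads were shared among such copies, so the split between them is uncertain. Scaled to the same summed FPKM, the ribosomal median was -0.09 while that of all genes was 0.10, so the distance to other genes stayed.

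The snoRNA host genes all lay on the lower side. Of 19 tested, 19 had a lower value (median -0.30), Snhg6 passed, and 5 had an unadjusted p under 0.05 (26.3% against 5.76% of all genes). Snhg5 had 63.3, 57.0, 55.3 and 57.9 in LKO ZT4 against 39.7, 53.7, 48.2 and 47.6 in LKO ZT16 (-0.30 ± 0.09, adjusted p = 0.240). The values of Gm11974 (-0.50 ± 0.16, adjusted p = 0.251) and 1810032O08Rik (-0.41 ± 0.14, adjusted p = 0.288), the table's symbols for Snhg15 and Snhg16, overlapped between groups. Many hosts of this kind share with ribosomal protein genes a start site in a run of pyrimidines, the 5′ TOP motif, through which the mTOR pathway controls translation.

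Other parts of the translation machinery had smaller differences. Translation factors had a median of -0.04 (0.06 with the same summed FPKM). Of 34, 7 were lower at an unadjusted p under 0.05 (20.6% against 5.76% of all genes) and 0 higher. Among all genes with a mean over 100 FPKM the lower share was 20.7%. Eif3i, of the initiation factor eIF3, had 217, 217, 231 and 243 by day and 203, 198, 200 and 195 by night (-0.19 ± 0.05, adjusted p = 0.240). Eif6, which keeps the large subunit from joining too soon, had 120, 112, 111 and 126 by day and 88.4, 106, 109 and 96.3 by night (-0.23 ± 0.08, adjusted p = 0.295). Neither group pair overlapped. Of 38 genes of ribosome biogenesis and the nucleolus, 0 had an unadjusted p under 0.05, and their median of 0.01 was that of all genes. Aminoacyl-tRNA synthetases had a median of -0.08 (0.02 with the same summed FPKM) and -0.02 without LKO ZT4 replicate 1, with 1 of 23 lower at an unadjusted p under 0.05 (4.35% against 5.76% of all genes).

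The 6 genes with the highest mean FPKM over the 8 libraries were Tmsb10, Eef1a1, Rpl41, Rn45s, Rps26 and Rplp1. The elongation factor Eef1a1 had 5779, 5585, 5370 and 6160 by day and 5740, 5484, 5609 and 5835 by night (-0.01 ± 0.06, adjusted p = 0.949). Its groups overlapped fully. Ribosomal proteins Rpl41 (-0.30 ± 0.11, adjusted p = 0.330), Rps26 (-0.26 ± 0.11, adjusted p = 0.354) and Rplp1 (-0.35 ± 0.11, adjusted p = 0.246) lay on the lower side. Tmsb10, an actin-binding peptide, ran from 3420 to 8214 within LKO ZT4 (-0.02 ± 0.19, adjusted p = 0.976). Rn45s, the precursor of ribosomal RNA, which poly-A selection should remove, had 4116, 4212, 2976 and 5272 by day and 4563, 6261, 8006 and 4625 by night (0.49 ± 0.19, adjusted p = 0.350). Its part in the other differences was not tested.

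Genes of the ER were taken as 2 lists, those of the translocation apparatus and those that fold proteins. Of 40 genes of ER targeting and membrane insertion, 35 had lower values (median -0.10, -0.01 with the same summed FPKM). Tmem208 passed, and 9 of the lower ones had an unadjusted p under 0.05 (22.5% against 5.76% of all genes). Emc4, of the ER membrane insertase, had 114, 120, 125 and 119 in LKO ZT4 against 103, 105, 102 and 89.4 in LKO ZT16 (-0.26 ± 0.06, adjusted p = 0.206). Spcs1, of the signal peptidase, had 160, 186, 198 and 201 by day and 157, 151, 164 and 146 by night (-0.26 ± 0.07, adjusted p = 0.236). Emc4 was lower in every night library than in any day library, and for Spcs1 day replicate 1 fell among the night values.

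ER chaperones and folding enzymes had a median of -0.24 that rested on 1 library. Of 24 genes 23 had a lower value, 1 with an unadjusted p under 0.05 (4.17% against 5.76% of all genes). This was Sil1 (-0.13 ± 0.06, adjusted p = 0.396). Without LKO ZT4 replicate 1 the median was 0.01. Hspa5, the chaperone BiP that rises in the unfolded protein response, named after its values were seen, had 2570, 1162, 1011 and 555 by day and 630, 1407, 1299 and 462 by night (-0.41 ± 0.37, adjusted p = 0.684). The range within each group was wider than the distance between them. Herpud1, of ER-associated degradation, had 285, 158, 171 and 111 by day and 105, 183, 174 and 86.7 by night, and the transcription factor Xbp1 94.1, 73.2, 77.5 and 66.1 and 58.2, 80.5, 75.8 and 51.1. In all 3 genes day replicate 1 was the highest library, and night replicates 2 and 3 exceeded night replicates 1 and 4.

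Other stress and lipid genes also varied among the libraries of a group. Taken as a mean log2(FPKM+1) per library, minus its mean over the 8, the ER folding score was 0.88, 0.12, 0.01 and -0.50 in LKO ZT4 against -0.36, 0.29, 0.22 and -0.66 in LKO ZT16. Targets of ATF4, the factor of the amino acid and ER stress response, scored 0.57, 0.02, -0.10 and -0.12 by day and 0.00, -0.05, -0.04 and -0.28 by night. Genes of cholesterol synthesis and uptake scored 0.54, -0.10, -0.07 and -0.17 by day and -0.30, 0.27, 0.17 and -0.34 by night. NF-kappaB targets, which respond to inflammatory signals, scored -0.47, -0.27, 0.11 and 0.32 by day and 0.16, -0.08, -0.20 and 0.43 by night, nearly the reverse order. For ER folding, ATF4, cholesterol and NF-kappaB genes the libraries of 1 group thus differed more than the groups did. The same held within LKO ZT4 for 2 further lists. Ribosomal protein genes scored from -0.067 to 0.288 there and from -0.161 to -0.055 in LKO ZT16. Genes of complexes III and IV and the ATP synthase scored from -0.132 to 0.277 and from -0.123 to -0.058.

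**Figure D3:**
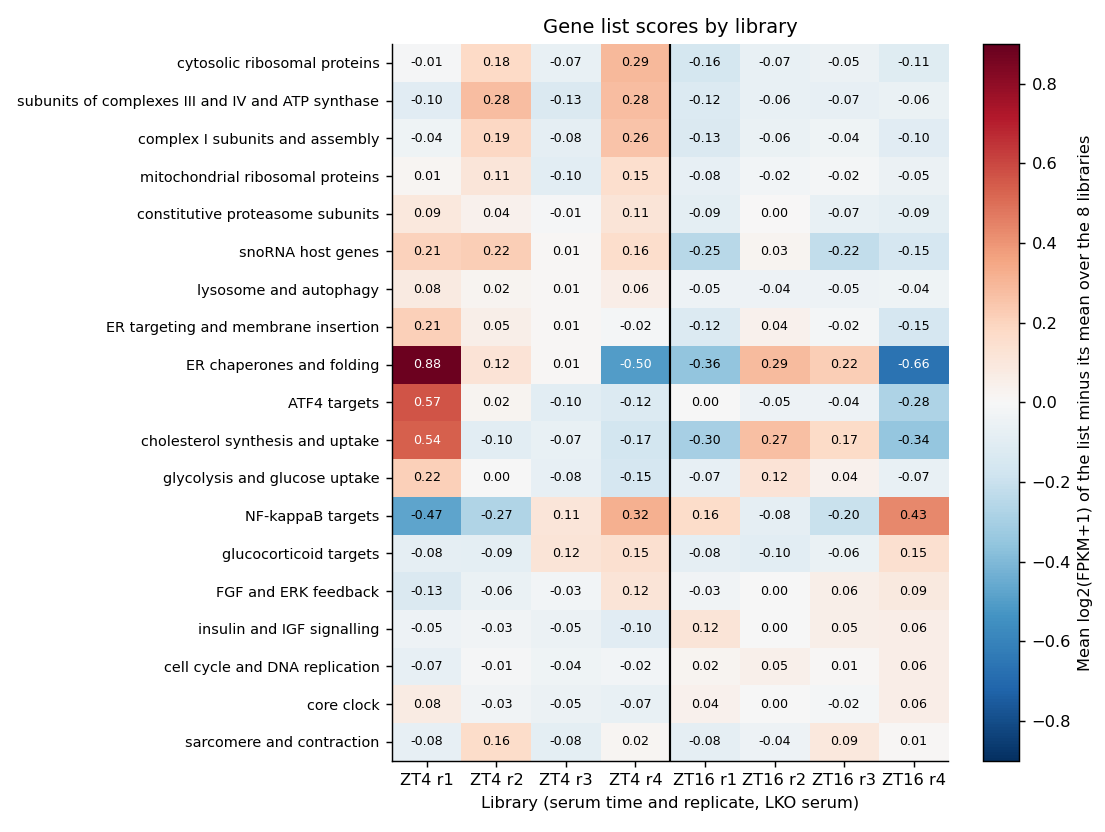
Mean log2(FPKM+1) of 19 gene lists in each of the 8 LKO libraries (columns, r for replicate), centred on the mean over the 8. ER folding ranges from 0.88 in day replicate 1 to -0.66 in night replicate 4, while ribosomal protein and oxidative phosphorylation genes are highest in day replicates 2 and 4.

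ATF4 targets had a median of -0.13 (-0.04 with the same summed FPKM, -0.02 without LKO ZT4 replicate 1), with 33 of 34 lower, against 48.3% of all genes. Ppp1r15a, which ends the translation block of stressed cells, had 27.8, 16.2, 14.6 and 13.7 by day and 11.7, 14.5, 13.1 and 10.6 by night (-0.46 ± 0.17, adjusted p = 0.328). Psph, of serine synthesis, had 80.0 in day replicate 1 against 57.3 to 59.1 in the other 3 and 45.5 to 56.6 by night (-0.30 ± 0.13, adjusted p = 0.362). Gadd45a, a relative of Gadd45g, had 96.9, 102, 105 and 142 by day and 86.9, 80.6, 91.3 and 91.3 by night (-0.33 ± 0.14, adjusted p = 0.365). Of the heat shock proteins 4 of 26 were lower at an unadjusted p under 0.05 (15.4% against 5.76% of all genes). Among them were the mitochondrial co-chaperonin Hspe1 (-0.30 ± 0.10, adjusted p = 0.277) and the muscle small heat shock proteins Hspb3 (-0.34 ± 0.14) and Cryab (-0.25 ± 0.10), the latter pair at an adjusted p of 0.350.

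No proteasome subunit passed, and the differences were small. All 31 constitutive subunits had a lower value under night serum under the main scaling (median -0.13, -0.03 with the same summed FPKM), and 14 had an unadjusted p under 0.05 (45.2% against 5.76%). Psmd8, of the regulatory lid, had 139, 144, 144 and 157 in LKO ZT4 against 131, 122, 126 and 126 in LKO ZT16 (-0.20 ± 0.06, adjusted p = 0.232). The core subunits Psmb4 (-0.20 ± 0.06), Psma2 (-0.19 ± 0.06) and Psma7 (-0.18 ± 0.06) each had an adjusted p of 0.246, and the groups overlapped in none of these 4. Lysosome and autophagy genes had a median of -0.08 (0.02 with the same summed FPKM), with 6 of 43 lower at an unadjusted p under 0.05 (14% against 5.76%). Atp6v0d1, of the proton pump that acidifies lysosomes, had 47.6, 43.8, 47.2 and 44.3 by day and 40.3, 38.5, 39.7 and 40.6 by night (-0.20 ± 0.05, adjusted p = 0.232), and the autophagy protein Gabarap 211, 224, 227 and 241 and 191, 197, 197 and 190 (-0.22 ± 0.06, adjusted p = 0.246).

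Antioxidant and metal-binding genes followed. NRF2 antioxidant enzymes had a median of -0.12 (-0.02 with the same summed FPKM, -0.05 without LKO ZT4 replicate 1). Of 34, 6 were lower at an unadjusted p under 0.05 (17.6% against 5.76% of all genes). Among them were thioredoxin, Txn1 (-0.22 ± 0.07, adjusted p = 0.246), and the pentose phosphate enzyme Taldo1 (-0.17 ± 0.06, adjusted p = 0.330). The metallothioneins bind zinc and respond to zinc and glucocorticoids. Mt1 had 484, 381, 658 and 692 by day and 250, 316, 377 and 422 by night (-0.68 ± 0.18, adjusted p = 0.212), and Mt2 460, 422, 631 and 766 and 254, 314, 364 and 518 (-0.66 ± 0.22, adjusted p = 0.264). The night values of both were lower on average, with 1 or more libraries overlapping. The zinc importer Slc39a10 went the other way, with 8.96, 9.70, 9.27 and 6.95 by day and 13.7, 11.003, 10.8 and 10.9 by night (0.38 ± 0.10, adjusted p = 0.212), as did the vesicle zinc transporter Slc30a4 (0.26 ± 0.08, adjusted p = 0.246).

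Nuclear genes of the mitochondrial respiratory chain mostly had lower values under night serum, though none passed. Complex I genes had a median of -0.14 (-0.04 with the same summed FPKM), 42 of 44 lower and 16 with an unadjusted p under 0.05 (36.4% against 5.76% of all genes). Genes of complexes III and IV and the ATP synthase had a median of -0.15 (-0.05 with the same summed FPKM), 36 of 42 lower and 11 with an unadjusted p under 0.05 (26.2% against 5.76%). The latter median was -0.08 without LKO ZT4 replicate 4 and -0.09 without replicate 2, the day libraries in which these genes were highest, and -0.21 without replicate 1 or 3.

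Ndufa7 of complex I had 243, 308, 288 and 335 in LKO ZT4 against 223, 242, 243 and 234 in LKO ZT16 (-0.31 ± 0.08, adjusted p = 0.212). Ndufa4, now counted to complex IV, had 710, 773, 691 and 836 by day and 621, 621, 678 and 648 by night (-0.23 ± 0.06, adjusted p = 0.240). In both, the lowest day library lay just above the highest night library. Among the others Ndufa8 differed by -0.20 ± 0.06, Cox6c of cytochrome c oxidase by -0.36 ± 0.10, Cox7a2l, which helps to join complexes III and IV, by -0.22 ± 0.06 and Atp5j2 of the ATP synthase by -0.34 ± 0.10, with adjusted p of 0.240 to 0.246. Mitochondrial ribosomal proteins had a median of -0.08 (0.02 with the same summed FPKM, -0.14 without LKO ZT4 replicate 3). Of 78, 14 were lower at an unadjusted p under 0.05 (17.9% against 5.76% of all genes). Mrpl33 had 380, 505, 491 and 632 by day and 329, 329, 412 and 402 by night (-0.43 ± 0.12, adjusted p = 0.225), and Mrps33 differed by -0.22 ± 0.07 (adjusted p = 0.264).

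Genes of the TCA cycle and pyruvate entry had a median of -0.02, with 3 of 31 lower at an unadjusted p under 0.05 (9.68% against 5.76%), among them both subunits of the mitochondrial pyruvate carrier, Mpc1 by -0.18 ± 0.06 (adjusted p = 0.246) and Mpc2 by -0.24 ± 0.08 (adjusted p = 0.288). Of 26 genes of mitochondrial biogenesis and dynamics 1 was higher at an unadjusted p under 0.05 (3.85% against 6.12% of all genes). This was Gabpa, a transcription factor of respiratory genes, with 20.5, 20.7, 20.6 and 19.5 by day and 23.7, 21.6, 22.0 and 22.6 by night (0.14 ± 0.05, adjusted p = 0.300). The fusion protein Mfn1 had 0.12 ± 0.06 (adjusted p = 0.485). Of 22 genes of fatty acid oxidation and 21 PPAR targets 0 had an unadjusted p under 0.05. Cpt1a, which brings fatty acids into mitochondria and responds to lipids through PPARs, had 41.7, 45.2, 56.7 and 47.9 by day and 58.5, 48.7, 52.0 and 63.0 by night (0.21 ± 0.12, adjusted p = 0.513).

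Few lipid and glucose genes had a small p. Cholesterol synthesis and uptake had a median of -0.08 (0.02 with the same summed FPKM, 0.08 without LKO ZT4 replicate 1), with 1 of 25 lower at an unadjusted p under 0.05 (4% against 5.76% of all genes). That gene, the sterol reductase Tm7sf2, had 14.8, 9.65, 10.3 and 10.2 by day and 6.76, 10.7, 9.72 and 7.58 by night (-0.34 ± 0.15, adjusted p = 0.387), and Fdps, of the mevalonate pathway, 444, 270, 279 and 240 and 198, 322, 299 and 160 (-0.35 ± 0.22, adjusted p = 0.556). Both overlapped between groups. Of 19 genes of fatty acid synthesis 0 had an unadjusted p under 0.05, and of 29 genes of glycolysis and glucose uptake 1 was higher (3.45% against 6.12% of all genes). This was Tbc1d4, which controls GLUT4 transport (0.24 ± 0.09, adjusted p = 0.318).

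Signals that serum carries were looked for in lists of their targets, most of which had medians near 0. Leaving out 1 LKO library turned the sign of the median in 17 of all 40 lists, in 15 of which it lay within 0.06 of 0, and the other two were ER folding and cholesterol. Insulin and IGF signalling had a median of 0.10 (0.20 with the same summed FPKM, 0.06 without LKO ZT4 replicate 4), with 24 of 29 genes higher and 5 of them at an unadjusted p under 0.05 (17.2% against 6.12%). They included Rictor, of the mTORC2 complex, with 4.24, 3.48, 4.52 and 4.06 in LKO ZT4 against 5.37, 4.46, 4.70 and 5.93 in LKO ZT16 (0.27 ± 0.09, adjusted p = 0.264). Pik3r1, the regulatory subunit of PI3-kinase, had 7.51, 7.17, 6.87 and 6.74 by day and 9.42, 7.75, 8.68 and 8.43 by night (0.24 ± 0.09, adjusted p = 0.314). Night values of Pik3r1 lay above all day values, while those of Rictor overlapped in 1 library. Igfbp5, an IGF-binding protein made by differentiating myoblasts, had 70.7, 167, 97.3 and 118 by day and 223, 130, 142 and 159 by night (0.56 ± 0.22, adjusted p = 0.341), and the receptor adaptor Grb14 differed by 0.36 ± 0.15 (adjusted p = 0.366).

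FGF and ERK genes had a median of 0.05 (with day replicate 3 left out -0.0085, with night replicate 3 left out 0.0074). At an unadjusted p under 0.05, 5 of 34 were higher (14.7% against 6.12% of all genes). On the lower side there were 2, near the share over all genes (5.88% against 5.76%). Beside Fgf2 the higher ones included Etv1, an ETS factor induced by FGF, with 1.31, 2.24, 2.13 and 2.15 by day and 4.11, 2.37, 2.81 and 3.34 by night (0.49 ± 0.13, adjusted p = 0.221), and the ERK pathway inhibitor Spred1 (0.21 ± 0.06, adjusted p = 0.249). The receptor Fgfr3 was on the other side (-0.23 ± 0.08, adjusted p = 0.320). Among TGF-beta and BMP targets 2 of 28 were lower and 2 higher at an unadjusted p under 0.05 (7.14% each), near the shares over all genes (5.76% lower and 6.12% higher). Id3, a BMP target that holds back differentiation, had 61.3, 70.6, 83.3 and 98.2 by day and 39.7, 56.3, 58.7 and 63.5 by night (-0.51 ± 0.18, adjusted p = 0.306), Ctgf 93.3, 56.1, 119 and 86.8 and 26.0, 61.5, 58.6 and 52.9 (-0.85 ± 0.31, adjusted p = 0.317), and the receptor Tgfbr2 0.20 ± 0.08 (adjusted p = 0.366). Both targets overlapped between groups and had the lowest value in night replicate 1.

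SRF and YAP targets of the cytoskeleton, to which Ctgf also belongs, had a median of -0.10 (0.00 with the same summed FPKM, -0.05 without LKO ZT16 replicate 1 or with library weights). Of 31, 6 were lower (19.4% against 5.76% of all genes) and 1 higher (3.23% against 6.12%) at an unadjusted p under 0.05. Cytoplasmic gamma-actin, Actg1, had 2430, 2249, 2426 and 2447 by day and 1927, 2336, 2186 and 2026 by night (-0.18 ± 0.08, adjusted p = 0.380), and the SRF coactivator Mkl2 differed by 0.24 ± 0.09 (adjusted p = 0.330). The glucocorticoid receptor Nr3c1 had 12.9, 12.3, 13.7 and 9.84 by day and 14.7, 14.3, 13.4 and 15.3 by night (0.24 ± 0.09, adjusted p = 0.328). Glucocorticoid targets had a median of 0.01. Of 18, 3 were higher (16.7% against 6.12% of all genes) and 2 lower (11.1% against 5.76%) at an unadjusted p under 0.05. NF-kappaB targets had 2 of 22 higher at that threshold (9.09% against 6.12%), the subunit Rel (0.42 ± 0.13, adjusted p = 0.246) and the chemokine Cxcl12 (0.32 ± 0.12, adjusted p = 0.328). Interferon genes had 2 of 14 lower (14.3% against 5.76%), led by Irf9 (-0.32 ± 0.09, adjusted p = 0.246). The IL-6 family had 1 of 18 higher, the receptor Lifr (0.24 ± 0.10, adjusted p = 0.350), a share below that over all genes (5.56% against 6.12%).

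Of FoxO and muscle atrophy genes 2 of 23 were higher (8.7% against 6.12% of all genes) and 3 lower (13% against 5.76%) at an unadjusted p under 0.05. Sesn3, a FoxO target that restrains mTORC1, had 4.87, 5.31, 6.54 and 4.25 in LKO ZT4 against 9.75, 6.13, 7.01 and 8.24 in LKO ZT16 (0.49 ± 0.12, adjusted p = 0.212). Eif4ebp1, the translation repressor under mTORC1, had 279, 211, 199 and 240 by day and 186, 195, 192 and 179 by night (-0.29 ± 0.12, adjusted p = 0.345), and the muscle ubiquitin ligase Trim63 differed by -0.31 ± 0.13 (adjusted p = 0.369). Beside Xiap, apoptosis genes had Casp9, the initiator caspase that XIAP blocks, at 0.25 ± 0.09 (adjusted p = 0.317) and Birc5, survivin, at -0.19 ± 0.06 (adjusted p = 0.288). Beside Lrrc8b, channel genes had the ER calcium channel Itpr1 at 0.20 ± 0.08 (adjusted p = 0.334).

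Cell cycle and DNA replication genes had a median of 0.05, with 31 of 40 higher and 7 of these at an unadjusted p under 0.05 (17.5% against 6.12%). Cdk6, the G1 kinase, had 8.002, 8.72, 9.78 and 6.12 by day and 12.1, 9.59, 10.9 and 14.1 by night (0.48 ± 0.13, adjusted p = 0.222). E2f8 had 16.4, 21.4, 20.1 and 20.1 by day and 22.4, 21.7, 22.8 and 24.7 by night (0.23 ± 0.08, adjusted p = 0.303), and the S-phase cyclin Ccne2 differed by 0.23 ± 0.08 (adjusted p = 0.317). On the other side 9 of the 40 were lower, 1 of them at an unadjusted p under 0.05, the mitotic kinase Aurka, named after its values were seen, with 52.6, 52.8, 51.5 and 47.5 by day and 41.6, 49.7, 44.97 and 43.4 by night (-0.18 ± 0.08, adjusted p = 0.403). Dividing cells that remain among myotubes and more transcript per cell cannot be told apart in these bulk libraries.

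Few genes of muscle structure had a small p. Of 50 genes of the sarcomere 1 was higher at an unadjusted p under 0.05 (2% against 6.12% of all genes). This was Mybpc2, fast myosin-binding protein C, with 3.01, 3.02, 1.51 and 2.56 by day and 4.11, 4.21, 4.39 and 3.44 by night (0.54 ± 0.17, adjusted p = 0.246). Titin, Ttn (0.26 ± 0.13, adjusted p = 0.430), and the fast myosin Myh4 (0.44 ± 0.21, adjusted p = 0.432) had higher mean values with overlap, and the list's median was -0.02 (0.08 with the same summed FPKM). Of 23 myogenic factors 1 was higher at an unadjusted p under 0.05 (4.35% against 6.12%), Mef2d (0.17 ± 0.07, adjusted p = 0.330). Col6a1 and Col6a2, neighbours on chromosome 10 that encode chains of collagen VI, had 7.60, 10.7, 9.18 and 10.8 and 3.26, 4.97, 3.65 and 3.81 by day. By night they had 16.8, 12.5, 10.03 and 14.005 and 6.32, 5.65, 4.24 and 5.15 (0.43 ± 0.14 and 0.37 ± 0.12, adjusted p = 0.251 for both).

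Core clock genes gave no call. Of 20 tested, 0 passed, 0 had an unadjusted p under 0.05 and 0 had groups without overlap, and adjusted p ran from 0.435 to 0.992. Bmal1 appears in the table as Arntl. The myotubes carry the gene intact, the deletion being one of the donors' liver, so its level does not check the deletion. The 4 day libraries had 7.51, 4.82, 6.26 and 5.15 and the night libraries 6.29, 5.41, 4.25 and 4.35 (-0.19 ± 0.15, adjusted p = 0.642), and its partner Clock 14.96, 12.4, 14.3 and 9.69 and 15.7, 14.7, 13.4 and 14.7 (0.19 ± 0.10, adjusted p = 0.464). Groups overlapped in both.

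Among the repressors Per1 differed by 0.00 ± 0.12, Per2 by 0.10 ± 0.11, Per3 by 0.12 ± 0.09, Cry1 by 0.19 ± 0.14, Cry2 by 0.11 ± 0.08, Nr1d1 by 0.05 ± 0.12 and Nr1d2 by 0.11 ± 0.08. The clock outputs Dbp, Tef and Hlf, which share a binding site, differed by 0.09 ± 0.15, 0.10 ± 0.07 and 0.26 ± 0.13. The values of the remaining regulators were -0.21 ± 0.14 for Nfil3, -0.05 ± 0.08 for Bhlhe40, 0.17 ± 0.09 for Bhlhe41, 0.05 ± 0.10 for Rora and -0.35 ± 0.25 for Ciart. Ciart, a repressor of CLOCK and BMAL1, had 8.06, 4.77, 2.69 and 3.16 by day and 2.90, 4.04, 3.03 and 2.83 by night, so that day replicate 1 set most of its difference. With 1 time of harvest after 24 hr of serum, the phase of the myotubes' own clock was not measured.

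**Figure D4:**
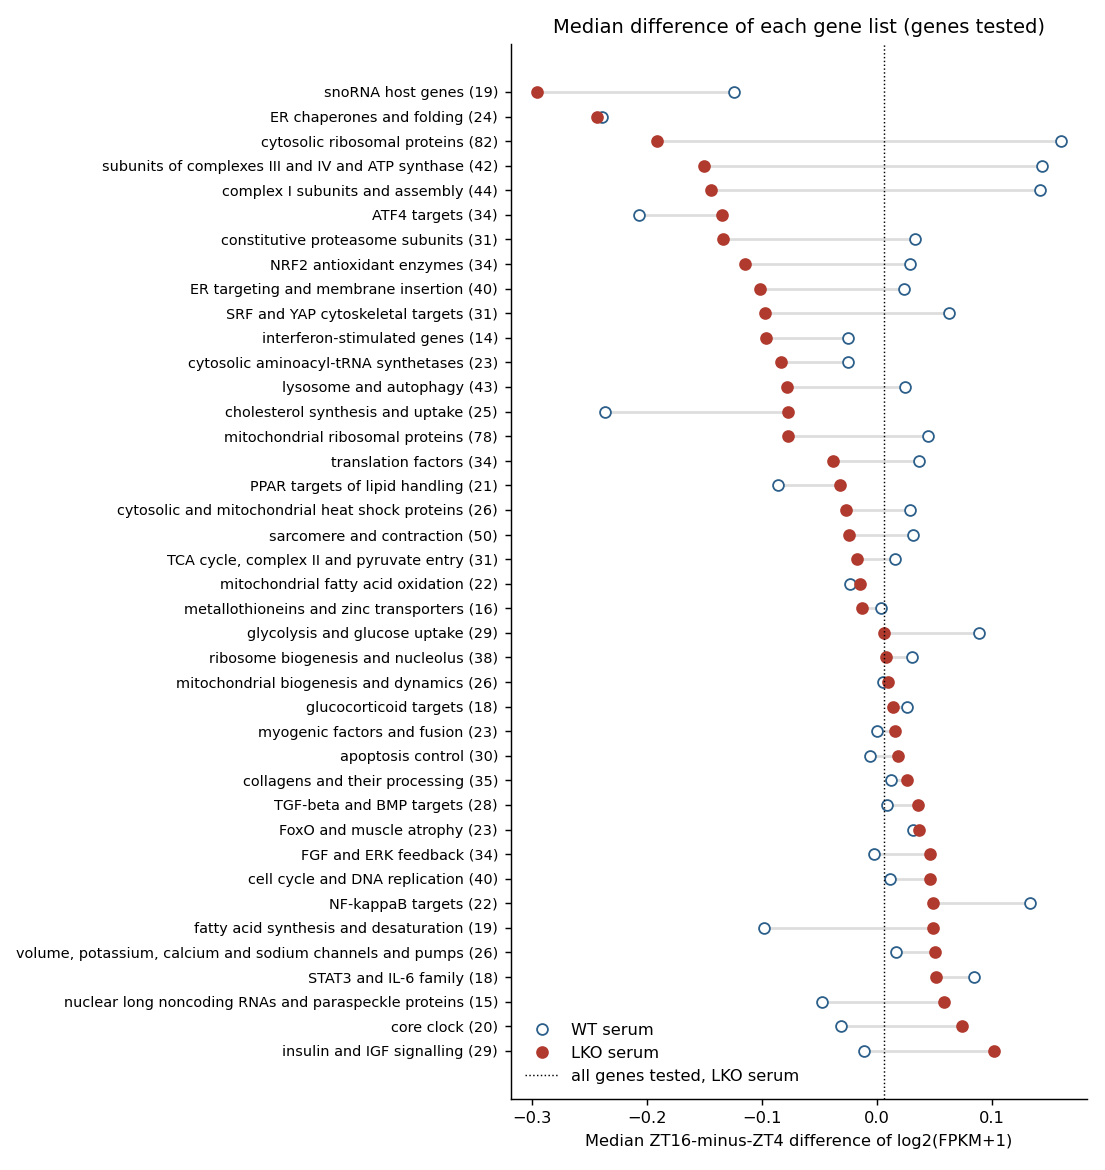
Median ZT16-minus-ZT4 difference of log2(FPKM+1) of the 40 gene lists (genes tested in brackets) under LKO serum (filled) and WT serum (open), with the median of all genes under LKO serum dotted. Cytosolic ribosomal protein genes lie at -0.19 under LKO and 0.16 under WT serum. ER folding genes lie at -0.24 under both, though the LKO value is 0.01 without LKO ZT4 replicate 1. With libraries scaled to equal summed FPKM the LKO medians lie 0.067 to 0.102 higher, and that of all genes rises alike, to 0.10.

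Whether the night-minus-day difference depended on the donors' genotype was tested as an interaction, the LKO difference minus the WT difference, which share no library. In limma 11 genes passed (0.0934%), 10 with a lower (0.0849%) and 1 with a higher difference under LKO serum (0.00849%). In all 11 the WT difference had the opposite sign, which choosing genes by the interaction favours, so this count carries no test. Under WT serum alone 0 genes passed in limma, and 468 had an unadjusted p under 0.05 (3.97%). Across the genes tested the differences under the 2 sera had a correlation of -0.201, given as a description, since genes of 1 library are not independent.

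Snhg6 had the largest estimate of the genes outside the ribosome (-1.27 ± 0.14, adjusted p = 0.000592), as WT ZT4 and WT ZT16 had 48.3 ± 5.09 and 73.9 ± 7.44 (n = 4 each). Levels of LKO ZT16 (51.5 ± 4.95) were thus near those of WT ZT4, and levels of LKO ZT4 (82.5 ± 10.6) near those of WT ZT16. Whether the labels of the sera are crossed cannot be told from the files, and the direction of each LKO and interaction value rests on them. Rps27rt had 2875 ± 98.2, 4964 ± 251, 4658 ± 1029 and 2807 ± 131 under WT day, WT night, LKO day and LKO night serum (-1.49 ± 0.17, adjusted p = 0.000592). In the same order Rps21 had 1863 ± 223, 3199.7 ± 219.7, 3096 ± 823 and 1735 ± 153 (-1.58 ± 0.21, adjusted p = 0.00346). These 3 genes passed in all 25 alternatives in which they could be fitted, and the other 8 did not.

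Further ribosomal transcripts were Rpl39 (-1.04 ± 0.15, adjusted p = 0.00983), Rpl34-ps1, a pseudogene copy of Rpl34 (-1.12 ± 0.17, adjusted p = 0.00983), and Rpl38 (-1.64 ± 0.28, adjusted p = 0.0255). Slirp (-1.13 ± 0.18, adjusted p = 0.0144) and the cytochrome c oxidase subunit Cox7a2 (-0.69 ± 0.12, adjusted p = 0.0342) are mitochondrial proteins. Gm12191, a predicted gene of 348 nt, had -0.61 ± 0.09 (adjusted p = 0.0125) and Tmem208 -0.56 ± 0.10 (adjusted p = 0.0255). For Tmem208 the WT groups, with 78.3 ± 7.94 and 84.9 ± 4.61, lay between the LKO groups. The call was lost in 15 of 25 alternatives for Cox7a2 (adjusted p up to 0.105), in 10 for Rpl38 (up to 0.0908) and in 9 for Tmem208 (up to 0.0831), in 2 each for Slirp and Gm12191 (up to 0.0577 and 0.0599) and in 1 each for Rpl39 and Rpl34-ps1 (0.0550 for both). The 10 lower genes had transcripts of 348 to 801 nt, and among transcripts of at least 1000 nt, where only Chpt1 of the 11 could be fitted, 0 passed the interaction in limma (601 at an unadjusted p under 0.05).

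Chpt1 makes phosphatidylcholine from diacylglycerol in the last step of its synthesis. It had 20.5, 20.1, 19.2 and 20.0 in LKO ZT4 against 23.3, 24.6, 25.4 and 23.6 in LKO ZT16 (0.27 ± 0.06, adjusted p = 0.197). Night libraries lay above all day libraries, with both groups tight. Under WT serum the order was reversed, with 23.1 ± 2.33 in WT ZT4 against 19.3 ± 0.632 in WT ZT16, and the interaction was 0.51 ± 0.09 (adjusted p = 0.0268, 0.00711 to 0.148 over the alternatives, lost in 12 of 26).

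The interaction median was -0.34 for ribosomal proteins, of which 3 of 82 passed it, -0.30 for complexes III and IV and the ATP synthase (1 of 42), -0.26 for complex I (0 of 44) and -0.25 for snoRNA hosts (1 of 19), against 0.01 for all genes, of which 0.0934% passed it. The snoRNA hosts had a lower median under WT serum too (-0.12), unlike the ribosomal proteins (0.16), complex I (0.14) and complexes III and IV and the ATP synthase (0.14). Of these hosts, Snhg5 had no opposite difference under WT serum (0.02, interaction -0.32, adjusted p = 0.366). In ER folding genes the medians under LKO and WT serum were both -0.24, and the interaction median was -0.02. The LKO median rested on 1 library and was 0.01 without LKO ZT4 replicate 1. Cholesterol genes had -0.24 under WT serum and -0.08 under LKO serum, with 0 of 25 passing the interaction.

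Promoters are shown for the 3 ribosomal protein genes that passed the interaction, Rps21, Rpl39 and Rpl38, and for Chpt1, to set the starts of the lower genes beside that of the higher one. They come from RefSeq (GRCm38.p6) and run 5′ to 3′ on the gene's strand, 250 bases before the start and 50 from it. The positions are chr2:180257129-180257428 (+) for Rps21, chrX:37085173-37085472 (-) for Rpl39, chr11:114668330-114668629 (+) for Rpl38 and chr10:88503921-88504220 (-) for Chpt1. Capitals mark CTTTC, a stretch of pyrimidines chosen after the sequences were seen, wherever it falls. Promoters of Snhg6 and Tmem208 were not used here.
Rps21: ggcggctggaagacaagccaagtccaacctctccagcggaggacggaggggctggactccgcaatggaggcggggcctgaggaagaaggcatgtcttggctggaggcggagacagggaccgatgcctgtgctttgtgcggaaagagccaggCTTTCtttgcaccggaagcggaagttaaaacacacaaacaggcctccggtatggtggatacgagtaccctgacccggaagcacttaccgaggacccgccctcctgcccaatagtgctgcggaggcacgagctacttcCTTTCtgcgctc
Rpl39: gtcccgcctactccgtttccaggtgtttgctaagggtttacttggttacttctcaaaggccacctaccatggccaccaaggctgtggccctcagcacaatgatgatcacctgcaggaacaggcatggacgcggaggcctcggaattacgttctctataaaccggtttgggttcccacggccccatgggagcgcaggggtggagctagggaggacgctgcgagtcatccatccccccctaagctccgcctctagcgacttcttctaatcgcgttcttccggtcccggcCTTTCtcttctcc
Rpl38: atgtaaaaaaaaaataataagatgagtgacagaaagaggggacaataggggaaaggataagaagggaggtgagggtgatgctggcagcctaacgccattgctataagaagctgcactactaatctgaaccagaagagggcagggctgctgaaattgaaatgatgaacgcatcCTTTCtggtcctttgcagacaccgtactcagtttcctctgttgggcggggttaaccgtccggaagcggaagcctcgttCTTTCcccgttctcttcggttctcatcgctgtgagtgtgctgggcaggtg
Chpt1: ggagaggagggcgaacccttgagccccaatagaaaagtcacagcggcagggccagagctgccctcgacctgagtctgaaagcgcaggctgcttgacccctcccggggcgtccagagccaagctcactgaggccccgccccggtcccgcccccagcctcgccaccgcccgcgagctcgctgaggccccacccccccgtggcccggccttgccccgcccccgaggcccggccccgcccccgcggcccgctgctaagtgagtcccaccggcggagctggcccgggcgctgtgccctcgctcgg
In each of the 3 ribosomal promoters 1 CTTTC lay in the 50 bases from the start, and in that of Chpt1 0. Only in Rpl38 did it lie at the start itself, the place of a TOP motif. In Rps21 and Rpl39 it lay near the end of the 50 bases. On the opposite strand the 300 bases held 1, 0, 2 and 1 copies in Rps21, Rpl39, Rpl38 and Chpt1. CTTTC within those 50 bases, on the strand shown, was found in 41.0% of the 61 ribosomal protein promoters matched and in 4.74% of the 9012 promoters of tested genes (the first listed per gene). The E-box CACGTG, which reads the same on both strands and which CLOCK and BMAL1 can bind, was in none of the 4 and in 10.6% of the 9012. A match describes letters and not a site in use.

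Differences followed transcript length. Transcripts under 500 nt (318 genes) had a median of -0.07, with 17.9% lower and 4.40% higher at an unadjusted p under 0.05. Transcripts of 500 to 1000 nt had a median of -0.03, and those of 1000 to 2000 nt one of -0.01. Above this the sign turned, with a median of 0.04 for 2000 to 4000 nt and 0.09 for 4000 nt and over (740 genes, 15.7% higher and 0.27% lower). Genes with a lower value at an unadjusted p under 0.05 had a median length of 825 nt, and those with a higher value 2146 nt. Under WT serum the medians ran the other way, from 0.04 under 500 nt to -0.01 at 4000 nt and over.

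Within LKO ZT4 the libraries differed in the same respect. For each library, genes were centred over libraries, and the mean log2(FPKM+1) of those over 2000 nt was subtracted from that of those under 500 nt, here called short-minus-long. This value was -0.04, 0.12, -0.11 and 0.21 in replicates 1 to 4 of LKO ZT4 against -0.11, -0.01, -0.02 and -0.07 in LKO ZT16. Replicates 2 and 4 of LKO ZT4 stood above the other 6 libraries, and these are the day libraries in which ribosomal protein and respiratory chain genes were highest. The part of this in the differences of short transcripts was not tested beyond removing it. With a smooth trend in length removed from each library 5 genes passed, Snhg6 and Tmem208 among them (-0.63 and -0.40, adjusted p = 0.0370), and the ribosomal, proteasome and complex I medians were -0.16, -0.10 and -0.11.

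**Figure D5:**
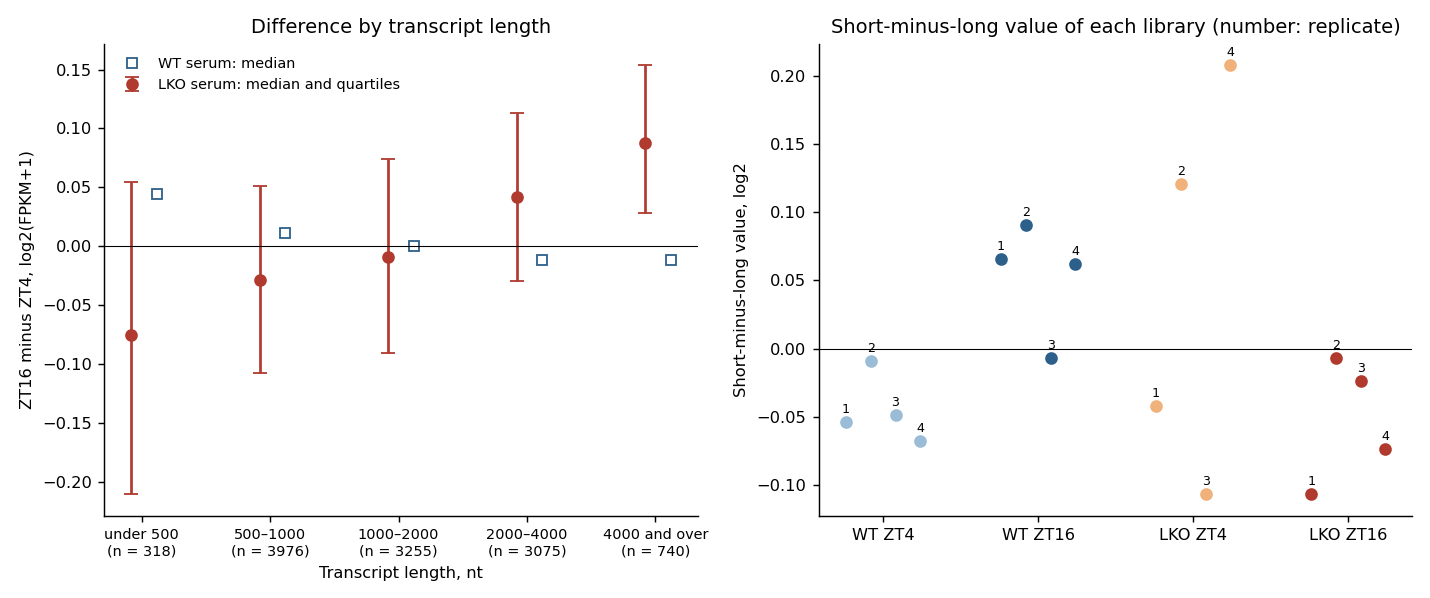
Left, median ZT16-minus-ZT4 difference of log2(FPKM+1) by transcript length in nt under LKO serum (filled, with quartiles) and WT serum (open), with the number of genes. Right, the short-minus-long value of each library, where LKO ZT4 replicates 2 and 4 at 0.12 and 0.21 stand above the other LKO libraries.

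Level went along with length. Genes with a mean over 100 FPKM in the 8 libraries (946 genes, median length 826 nt) had a median of -0.08, with 20.7% lower and 0.951% higher at an unadjusted p under 0.05. Genes between 1 and 10 FPKM (4425 genes, median length 1799 nt) had a median of 0.04, with 2.55% lower and 7.93% higher. The shares of the lists were set against all genes and not against genes of like level or length. Beside the 20.7%, translation factors had 20.6% and ER insertion genes 22.5%. Mitochondrial ribosomal proteins (17.9%), NRF2 enzymes (17.6%) and heat shock proteins (15.4%) lay below it. Ribosomal proteins (58.5%), proteasome subunits (45.2%) and complex I genes (36.4%) lay above it.

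On the leading component LKO ZT4 replicate 1 lay furthest out (-21.8), with replicate 4 on the other side (16.6). Without replicate 1, 62 genes passed (0.526%), 51 lower (0.433%) and 11 higher (0.0934%), against 2 with it. These held 9 of 82 ribosomal proteins, 7 of 42 genes of complexes III and IV and the ATP synthase, 5 of 44 of complex I, 2 of 78 mitochondrial ribosomal proteins, 2 of 40 of ER insertion and 1 of 19 snoRNA hosts, all lower. Rps27rt then had -0.86 (adjusted p = 0.000164), Rpl39 -0.66 (adjusted p = 0.00165), Rps21 -0.96 (adjusted p = 0.00189) and Cox6c -0.48 (adjusted p = 0.00848). On the higher side Lrrc8b had 0.38 (adjusted p = 0.0284), Xiap 0.37 (adjusted p = 0.0307), Nucks1 0.24 (adjusted p = 0.0351) and Fgf2 0.74 (adjusted p = 0.0477). Replicates 2 and 4, with the high short-minus-long values, make up 2 of the 3 day libraries left in that fit. Without replicate 2 or without replicate 4, 0 genes passed in limma (1323 and 1051 at an unadjusted p under 0.05), and without replicate 3 there were 5.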

How the data were processed

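Differentiated C2C12 myotubes were exposed for 24 hr to serum of WT or Bmal1hep-/- mice bled at ZT4 or ZT16, with 4 libraries in each of 4 groups, and groups were taken from the sample labels. The authors deposited 1 table of FPKM for 16 libraries. Per the labels' protocols, messenger RNA was captured with poly-T beads and cDNA was primed with random hexamers, and no strand-specific step is named, so reads of overlapping antisense genes may not be told apart. The submitters' processing notes name FastQC 0.11.8, STAR and the builds mm10 and GRCm39, with no role. No source used here gives the program and annotation behind FPKM, or a rule for reads shared by copies of a gene. Of 24346 genes in the table, 27 with symbols turned into dates were left out.

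Genes with a mean of at least 0.5 FPKM over the 16 libraries were tested (11783) as log2(FPKM+1), a pseudocount of 1, with no further scaling. One limma model (version 3.58.1, R 4.3.3) held all 4 groups (trend in the variance, 12 residual degrees of freedom), with Benjamini-Hochberg adjustment over all genes. Without counts the depth behind a value is unknown, and relative depth came from the steps of low FPKM values. Transcript lengths were medians over GENCODE M21 transcripts and were found for 96.4% of tested genes. Python 3.11.15 with matplotlib 3.10.9 drew the figures.

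The genes named were those passing, the 12 higher and 12 lower annotated genes with the smallest p, up to 4 of each list with the smallest p, clock genes, the 11 genes of the interaction and the 6 with the highest FPKM, and 5 more were named after their values were seen. The members and lists were chosen with earlier results of these data known, so lists carry no test. Titles and column names number some libraries differently. Tried as alternatives were another pseudocount (0.1), another filter (none, or a mean of 2 FPKM), scaling by summed FPKM or by median ratios, library weights, the replicate number as a block, removal of a length trend, transcripts of at least 1000 nt, each library left out and the 8 LKO libraries alone.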

Additional observations from a re-analysis of the deposited data

Results flagged for a closer look

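Of 350 sets of 4 values (135 named genes and 40 list scores in LKO ZT4 and LKO ZT16), 22 held 1 value far from the other 3 by Dixon's test at the 95% level, where chance flags about 1 in 20 sets. LKO ZT4 replicate 1 gave 6 of them. It had a high value of Psph (80.0 FPKM against 57.3 to 59.1 in the other 3) and of Tm7sf2 (14.8 against 9.65 to 10.3), a low value of Hspe1 (455 against 515 to 521) and of Etv1 (1.31 against 2.13 to 2.24), and high mean log2(FPKM+1) of aminoacyl-tRNA synthetases (6.65 against 6.41 to 6.43) and of cholesterol genes (5.85 against 5.15 to 5.25). LKO ZT4 replicate 4 had a low value of Gabpa (19.5 against 20.5 to 20.7) and of Ttn (1.53 against 2.65 to 2.70), a high value of Gadd45a (142 against 96.9 to 104.5), and low means of collagen genes (5.09 against 5.17 to 5.18) and channel genes (3.21 against 3.36 to 3.39). Actg1 (2249 against 2426 to 2447) and the mean of SRF and YAP targets (6.93 against 7.05 to 7.07) were low in LKO ZT4 replicate 2, and the mean of apoptosis genes (4.12 against 4.19 to 4.20) in replicate 3.

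In LKO ZT16, replicate 1 had a high value of Slc39a10 (13.7 against 10.8 to 11.003) and of Myh4 (4.93 against 3.26 to 3.42) and a low value of Ccne2 (13.7 against 15.7 to 15.8). Ciart was high in replicate 2 (4.04 against 2.83 to 3.03), and Rps27 in replicate 3 (80.9 against 6.17 to 11.1). Replicate 4 had a low mean of ATF4 targets (4.99 against 5.22 to 5.27) and high means of glucocorticoid targets (5.01 against 4.77 to 4.80) and of nuclear noncoding RNA genes (6.12 against 6.045 to 6.047).

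The night-minus-day difference differed between LKO and WT serum by the interaction test of limma in 11 genes. The LKO minus WT values were -1.27 for Snhg6, -1.49 for Rps27rt, -1.58 for Rps21, -1.64 for Rpl38, -1.12 for Rpl34-ps1, -1.04 for Rpl39, -1.13 for Slirp, -0.69 for Cox7a2, -0.61 for Gm12191, -0.56 for Tmem208 and 0.51 for Chpt1 (adjusted p from 0.000592 to 0.0342). In 9 of the 11 the LKO ZT4 and LKO ZT16 libraries did not overlap (5% over all genes), and the exceptions were Rpl34-ps1 and Cox7a2. The LKO difference is part of the interaction by which these genes were chosen, so this count carries no test.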

How the results depend on the processing

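Against 2 genes passing between LKO ZT16 and LKO ZT4, 0 passed in limma with equal summed FPKM, with no filter, with transcripts of at least 1000 nt or with the 8 LKO libraries alone (2312, 1709, 777 and 934 at an unadjusted p under 0.05), 5 with the length trend removed and 13 with library weights, and the 2 were among both. Leaving out 1 library gave 0 to 62, with 62 and 5 without LKO ZT4 replicate 1 and 3 and 0 without each of the other 6 LKO libraries. Against 11 genes for the interaction, 3 passed with no filter, 23 with a mean of at least 2 FPKM, 17 with the same summed FPKM, 127 with library weights and 0 with transcripts of at least 1000 nt, and 6 to 109 with 1 library left out, where 109, 39 and 6 came without LKO ZT4 replicate 1, LKO ZT4 replicate 3 and LKO ZT16 replicate 1. The cause of these moves was not tested. The other alternatives gave counts within 1.5 times.

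With the replicate numbers of the titles as a block 0 and 6 genes passed (1334 and 1132 at an unadjusted p under 0.05), and with those of the column names, a block added after seeing the data, 3 and 12. The numbers did not pair the samples: deviations of same-numbered libraries correlated by -0.125, 0.0259, -0.0439 and 0.255 for titles and by 0.335, 0.0615, -0.0823 and 0.255 for column names, and not every library correlated best with its own number.

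Of the named genes, 7 that did not pass turned sign, and the largest main difference among them was 0.14, for Rpl26. Scaling to the same summed FPKM gave 0.0856 for Tmsb10, 0.0896 for Eef1a1, 0.0834 for Per1 and 0.0495 for Bhlhe40, library weights 0.0056 for Per1 and -0.079 for Rpl28, and removal of the length trend 0.0306 for Tmsb10 and 0.0242 for Eef1a1. With 1 library left out they ran from -0.26 to 0.16 for Tmsb10, -0.0429 to 0.0231 for Eef1a1, -0.0786 to 0.0528 for Per1, -0.0878 to 0.0059 for Bhlhe40, -0.0456 to 0.14 for Nr1d1, -0.0183 to 0.21 for Rpl26 and -0.21 to 0.15 for Rpl28. FPKM without counts limits what can be said of precision at low levels.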

Other observations

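Nuclear noncoding RNAs and the proteins of paraspeckles, the nuclear bodies built on such RNA, were not described above. Of 15 tested, 13 had a higher value under LKO night serum (median 0.06), and 1 did so at an unadjusted p under 0.05 (6.67% against 6.12% of all genes). This was Rbm14, a paraspeckle protein, with FPKM of 37.7, 37.2, 34.8 and 37.6 in LKO ZT4 against 38.8, 42.2, 39.5 and 43.8 in LKO ZT16 (0.15 ± 0.06, adjusted p = 0.356 in limma). Every night library lay above every day library. Malat1, a noncoding RNA of nuclear speckles, had 77.2, 63.4, 59.6 and 54.0 by day and 79.7, 72.9, 69.5 and 63.5 by night (0.17 ± 0.11, adjusted p = 0.553), with overlap. Under WT serum its difference was -0.33.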
